A study of Mus musculus with 9 samples.

Results

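Genes of the heat shock and DnaJ chaperone families were followed in mouse skin. They were taken by name: each gene called Hspa, Hspb, Hspd, Hspe, Hsph or Hsp90, each Dnaja, Dnajb and Dnajc gene, and the regulators Hsf1, Hsf2 and Bag3, without pseudogenes. This gave 76 of the 49585 genes in the deposited tables. They comprise 13 HSP70 genes (Hspa and Hsph1), 3 HSP90 genes, the 2 genes of the mitochondrial chaperonin, 8 small heat shock genes (Hspb), 4 DnaJ genes of type A, 13 of type B and 28 of type C, and the 3 regulators. The other 2, Hspbp1 and Hspbap1, were set apart: they encode partners of HSP70 and of the small heat shock protein Hspb1. Classes otherwise follow gene names alone, and Hspb11 stands in the small heat shock class on that ground.

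RNA of whole skin was sequenced in 9 libraries, 3 a group. The first group carries the IL-6 KO label, with genotype IL-6 -/- on the C57BL/6 strain. The second is wild-type BALB/c, and the third, the control, is wild-type C57BL/6. All mice came at 4 to 5 weeks of age, rested for 2 weeks, were shaved at 6 weeks (day 0), were left untreated for the next 7 days, and skin was taken on day 8. The protocol speaks of 6 IL-6 KO, 3 BALB/c and 3 C57BL/6 mice and the labels tie no library to a mouse. The p-values therefore measure how much these libraries spread, which may be technical. The labels used here do not say how the Il6 allele was made or which sex the mice were.

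HSP70 proteins bind exposed stretches of unfolded proteins and let go of them as ATP is spent and exchanged. J proteins, named for bacterial DnaJ, bring clients to HSP70 and trigger the use of ATP, while exchange factors such as the large HSP70-like proteins reload it. HSP90 finishes the folding of kinases and receptors, small heat shock proteins hold unfolded proteins without ATP, and the factor Hsf1 switches many of these genes on under stress. In skin, Hspb1 is known from differentiating keratinocytes, whereas Hspb2, Hspb3, Hspb6 and Hspb7 are known mainly from muscle.

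Libraries held 3843953 to 4476346 exon reads under the IL-6 KO label, 6115739 to 6242332 in BALB/c and 6083876 to 6882193 in C57BL/6. Il6 itself had 6, 24 and 1 reads in the libraries with the IL-6 KO label, 0, 2 and 0 in BALB/c and 2, 1 and 0 in C57BL/6. The highest counts thus stand in the group labelled as lacking the gene, so that label is used below as a label and no more. The X-linked RNA Xist had 130 reads in BALB/c replicate 2 and at most 5 in each other library. Markers of hair follicle and muscle also split the groups. The summed inner root sheath list was at 15830.0 to 61102 CPM under the IL-6 KO label, 123 to 137 in BALB/c and 127 to 796 in C57BL/6. The summed skeletal muscle list was at 12596 to 14472 CPM under the IL-6 KO label, 35743 to 74247 in BALB/c and 70771 to 126476 in C57BL/6. In bulk RNA, fewer cells of a type and less RNA per cell cannot be told apart.

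Reads of the 76 genes made up 0.637% to 0.843% of exon reads, and 74 of the genes had reads. Levels per length were compared as RPKM (reads per kilobase of exon, scaled to library size), averaged over the 9 libraries. Hspb1, which guards keratin and actin filaments, was first at 493, before the constitutive HSP90 gene Hsp90ab1 at 404 and the constitutive HSP70 gene Hspa8 at 225. Hspb6 (146) and Hspb8 (136), 2 further small heat shock genes, followed. The lowest of the tested genes were Dnajb13 at 1.73 and Dnajc6 at 1.77. The filter on low counts passed 70 of the 76 genes. The 6 left out were Dnajb7, Dnajb8, Dnajc22, Dnajc5b, Dnajc5g and Hspb9, with Dnajb8 and Dnajc5g at 0 reads in every library.

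**Figure D1:**
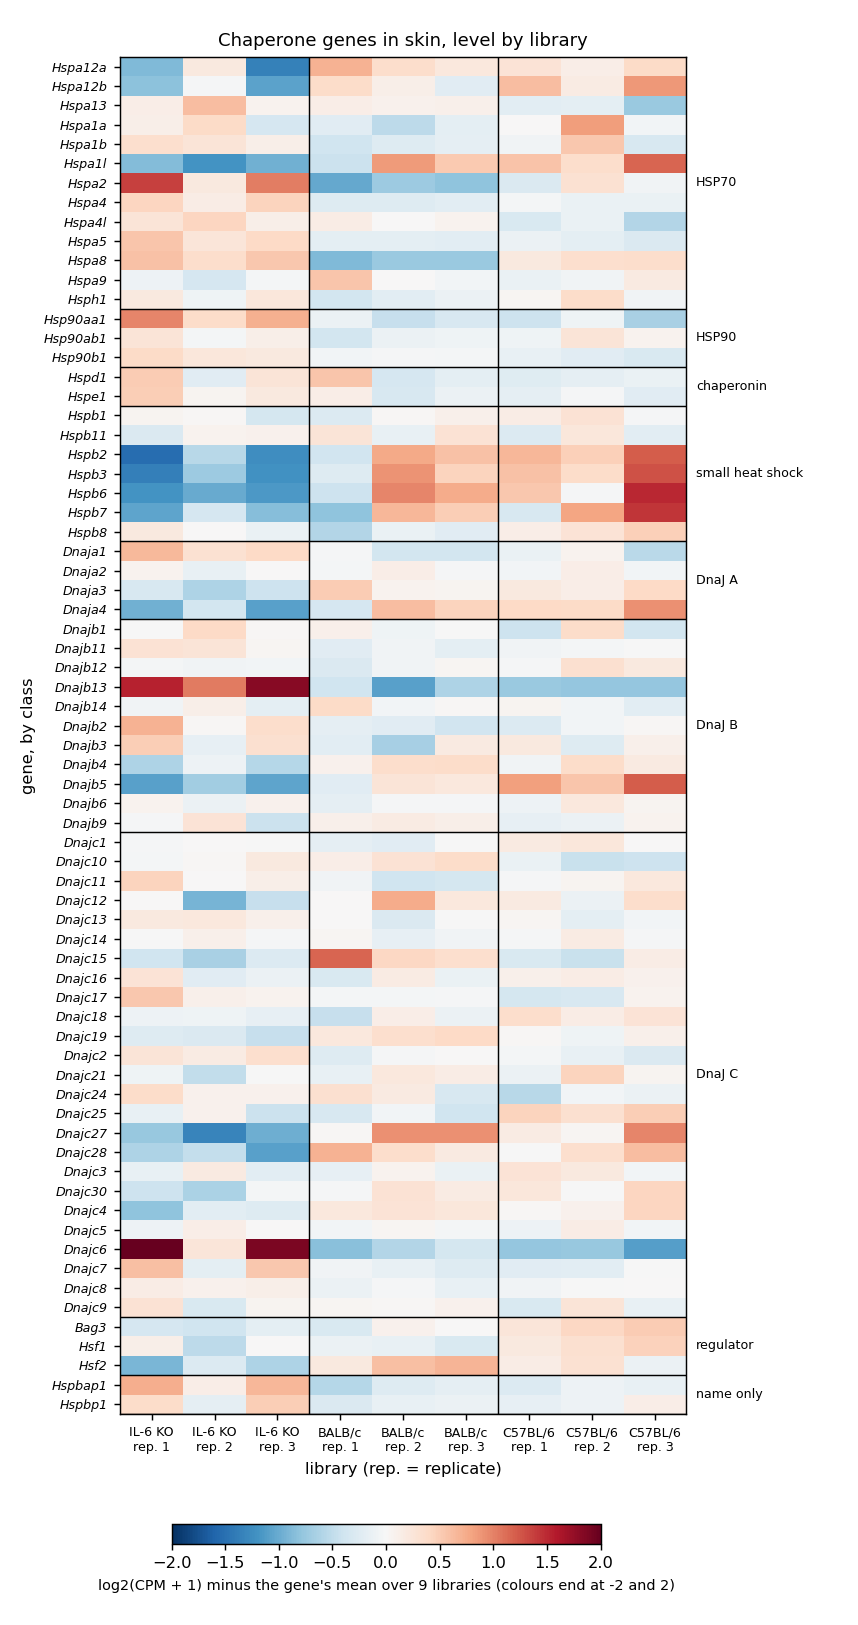
Heat map of the 70 tested genes (rows, by class) in 9 libraries (columns, by group); colour gives log2(CPM + 1) minus the gene's mean over the libraries. Under the IL-6 KO label, Hspb2, Hspb3, Hspb6 and Dnajb5 are blue and Dnajb13 and Dnajc6 are red, and Hspa8 is blue in the 3 BALB/c libraries.

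Values below are CPM (read counts scaled to library size, with TMM factors) in replicates 1, 2 and 3 of each group. Differences are log2 fold changes ± SE from edgeR's quasi-likelihood test over 14415 genes, with Benjamini-Hochberg adjusted p-values and a threshold of 0.05. In the libraries with the IL-6 KO label against C57BL/6, 13 of the 70 tested chaperone genes were higher and 17 lower (18.6% and 24.3%). Over all genes tested, 19.2% were higher and 16.0% lower, 35.2% in all. Against BALB/c, 12 chaperone genes were higher and 15 lower (17.1% and 21.4%), beside 19.9% and 17.4% of all genes, 37.3% in all. Between BALB/c and C57BL/6, 1 gene was higher and 1 lower (1.43% each), beside 1.63% and 1.78% of all genes, 3.41% in all. Shares of higher calls stood close to the background, and shares of lower calls above it for the IL-6 KO label, a gap that was not tested. The median of the family's log2 fold changes was -0.02, 0.08 and -0.07 in that order, against 0.01, 0.01 and -0.01 over all genes.

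Scaling by library size alone raised the median of all genes by more than 0.1 in the first comparison, to 0.15, and turned the split of chaperone calls there to 19 higher and 12 lower. Of all genes called, 67.8% were then higher, against 54.6% as reported. For the libraries with the IL-6 KO label against BALB/c the share moved to 60.9%, against 53.4%, and for BALB/c against C57BL/6 to 58.8%, against 47.9%. The chaperone calls were then 14 higher and 13 lower against BALB/c, and 1 in each direction between the strains.

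Both comparisons of the IL-6 KO label called 8 genes higher (Dnaja1, Dnajb13, Dnajc6, Hsp90aa1, Hspa2, Hspa4, Hspa5 and Hspbap1) and 12 lower (Dnaja3, Dnaja4, Dnajb4, Dnajb5, Dnajc27, Dnajc28, Dnajc4, Hsf2, Hspa1l, Hspb2, Hspb3 and Hspb6). The comparisons share the libraries with the IL-6 KO label, so they are not independent. Against C57BL/6 alone, 4 further genes were higher and 5 lower, and against BALB/c alone 3 were higher and 3 lower. Hspa8 was lower in BALB/c than in both other groups and Dnajc10 lower in C57BL/6 than in both. No call was made in any comparison for 33 genes.

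**Figure D2:**
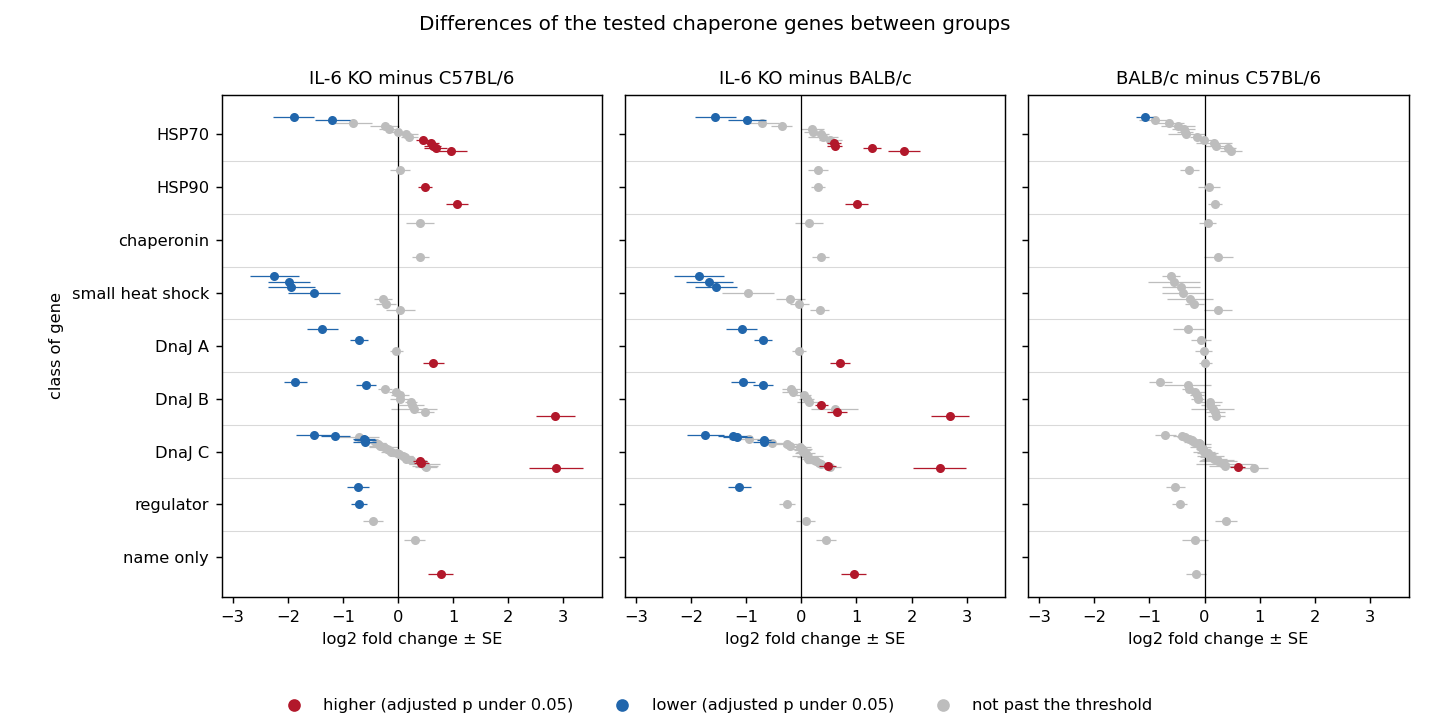
Log2 fold change ± SE (x axis) of each tested gene by class (y axis) in the 3 comparisons (panels); red and blue mark genes higher or lower at an adjusted p under 0.05. Small heat shock genes reach -2.25 in the first panel, Dnajb13 and Dnajc6 lie beyond 2.5 in the first and second panels, and the third panel holds 1 call on each side.

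Hspa8 encodes Hsc70, the HSP70 that cells make at all times and that also strips clathrin from vesicles. It lies on chromosome 9, 40800984 to 40810087 (GRCm38, plus strand). Of its reads, 37.4% mapped to a single place under the IL-6 KO label, 24.7% in BALB/c and 38.6% in C57BL/6. Of its near-identical copies in the GENCODE vM21 annotation, 7 have a row in the deposited tables, and the only one of these with reads was Gm26825, listed as a long intergenic RNA on chromosome 5, 5781530 to 5783636, whose transcript matches Hspa8 on the opposite strand. Over 1937 aligned bases the 2 transcripts differ by 5 substitutions and 3 gap bases (99.7% identity). All 5 substitutions fall within the 1941 coding bases of Hspa8: G114A, C414T, C549T, G1222A and C1440T, with the base of Hspa8 first and positions counted from the A of its start codon. The lines below give coding positions 406 to 555 as the reference genome has them. They are shown because this stretch holds 2 of the few bases by which a read can be assigned, marked in capitals, in a sequence that is otherwise the same.

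Hspa8: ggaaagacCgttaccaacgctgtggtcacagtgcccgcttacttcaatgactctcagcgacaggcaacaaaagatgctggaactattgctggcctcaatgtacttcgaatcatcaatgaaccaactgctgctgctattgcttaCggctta

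Gm26825: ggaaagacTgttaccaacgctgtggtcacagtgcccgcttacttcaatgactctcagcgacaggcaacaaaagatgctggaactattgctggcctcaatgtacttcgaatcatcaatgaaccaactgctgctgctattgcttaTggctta

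Hspa8 had 1360.3, 1156 and 1310.0 CPM under the IL-6 KO label, 491, 541 and 539 in BALB/c and 1036, 1143 and 1151 in C57BL/6. The BALB/c libraries were by far the lowest, without overlap. The difference was -1.08 ± 0.16, adjusted p = 0.00684 for BALB/c against C57BL/6 and 1.28 ± 0.16, adjusted p = 0.000564 for the IL-6 KO label against BALB/c. Against C57BL/6 the libraries with the IL-6 KO label were higher in each replicate, but the difference of 0.20 ± 0.15, adjusted p = 0.337 did not pass the threshold. In unique reads alone, BALB/c was lower than C57BL/6 by more (-1.72 ± 0.14, adjusted p = 0.000212).

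The copy went the other way. Gm26825 had 15.9, 11.2 and 14.6 CPM under the IL-6 KO label, 448, 459 and 456 in BALB/c and 2.46, 1.34 and 0.557 in C57BL/6, a difference of 8.23 ± 0.35, adjusted p = 2.92e-06 for BALB/c against C57BL/6. In raw reads this is 60, 55 and 69 under the IL-6 KO label, 2813, 2759 and 2812 in BALB/c and 16, 9 and 3 in C57BL/6. Gm26825 was also higher under the IL-6 KO label than in C57BL/6, by 3.20 ± 0.34, adjusted p = 0.000462. With the reads of Hspa8 and Gm26825 counted as 1 gene, the level was 1376, 1168 and 1325 CPM under the IL-6 KO label, 939, 999 and 995 in BALB/c and 1039, 1144 and 1151 in C57BL/6. The BALB/c libraries still lay below the others, but neither difference passed the threshold (-0.18 ± 0.16, adjusted p = 0.559 against C57BL/6, and 0.40 ± 0.16, adjusted p = 0.0716 for the IL-6 KO label against BALB/c). Both Hspa8 calls were thus lost with the reads of the 2 near-identical genes added. In unique reads alone both were kept, with 1.85 ± 0.14, adjusted p = 9.12e-05 for the IL-6 KO label against BALB/c. Which copy the BALB/c reads came from was not tested.

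**Figure D3:**
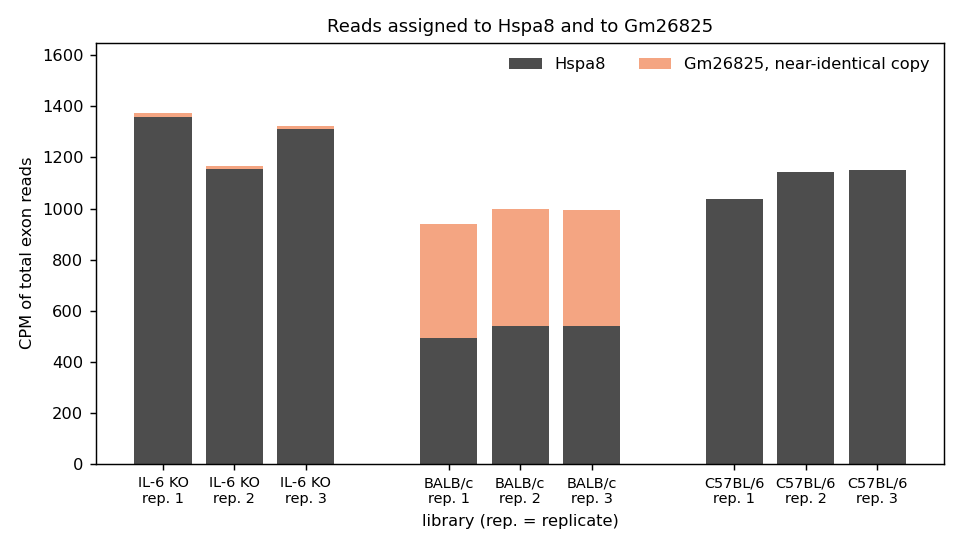
Stacked bars of CPM assigned to Hspa8 (grey) and to its copy Gm26825 (orange) in each of 9 libraries. Orange takes 448 to 459 CPM in the 3 BALB/c libraries and at most 15.9 CPM elsewhere, so that the stacks differ less than their grey parts.

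Of the 13 HSP70 genes, 5 were higher and 2 lower in the libraries with the IL-6 KO label than in C57BL/6 (median 0.15), and against BALB/c 4 were higher and 2 lower (median 0.35). Higher and lower calls made up 38.5% and 15.4% of the class in the first comparison, beside 19.2% and 16.0% of all genes, and 30.8% and 15.4% in the second, beside 19.9% and 17.4%. The 4 genes higher than in BALB/c include Hspa8, whose call was lost with the reads of its copy added (adjusted p = 0.0716). Their summed level was 2756, 2384 and 2603 CPM under the IL-6 KO label, 1656, 1582 and 1581 in BALB/c and 2130.2, 2376 and 2249 in C57BL/6. Hspa8 makes up much of that sum, and with it of the low BALB/c values. Hspa5 encodes BiP, the HSP70 of the endoplasmic reticulum. It had 447, 358 and 401 CPM under the IL-6 KO label, 264, 264 and 263 in BALB/c and 278, 266 and 249 in C57BL/6. Each library with the IL-6 KO label was above each other library, and the wild-type libraries lay close together. The difference was 0.60 ± 0.13, adjusted p = 0.00801 against C57BL/6 and 0.61 ± 0.13, adjusted p = 0.00757 against BALB/c, and no alternative ended either call.

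Hspa2, known from male germ cells, where it serves meiosis, had 62.9, 27.3 and 49.2 CPM under the IL-6 KO label, 11.1, 14.0 and 13.1 in BALB/c and 19.2, 29.4 and 22.5 in C57BL/6. IL-6 KO replicate 2 lay within the range of C57BL/6, while all 3 libraries of the label were above BALB/c. The difference was 1.86 ± 0.30, adjusted p = 0.00164 against BALB/c. Against C57BL/6 it was 0.97 ± 0.28, adjusted p = 0.0263, and that call was lost without IL-6 KO replicate 1 or 3 or C57BL/6 replicate 1 or 3, with the replicate block (adjusted p = 0.0602) and in a fit of the 2 groups alone (range over alternatives 0.00137 to 0.101). For BALB/c against C57BL/6 the difference was -0.89 ± 0.29, adjusted p = 0.141, and it passed on leaving out IL-6 KO replicate 2 (adjusted p = 0.0302). The inner root sheath sum was also lowest in replicate 2 within that label (61102, 15830 and 41920 CPM in replicates 1, 2 and 3). Its part in the Hspa2 values was not tested.

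Hspa4 and Hspa4l encode large HSP70-like proteins that act as exchange factors for HSP70. Hspa4 had 199, 163 and 202 CPM under the IL-6 KO label, 123, 124 and 128 in BALB/c and 143, 135 and 134 in C57BL/6. The libraries with the IL-6 KO label were all above the rest, by 0.59 ± 0.12, adjusted p = 0.00588 against BALB/c and 0.45 ± 0.12, adjusted p = 0.0194 against C57BL/6. The second call was lost without IL-6 KO replicate 1 or 3 or C57BL/6 replicate 2 or 3, without the low-count filter and in a fit of the 2 groups alone (0.00157 to 0.0835). Hspa4l had 37.0, 41.7 and 33.5 CPM under the IL-6 KO label, 34.2, 30.9 and 32.3 in BALB/c and 24.6, 28.0 and 20.1 in C57BL/6. It was higher under the IL-6 KO label than in C57BL/6 (0.62 ± 0.15, adjusted p = 0.0125), and against BALB/c, whose values reach into those of the label, the difference was 0.21 ± 0.15, adjusted p = 0.314.

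Hspa1l, an HSP70 known from testis, had 6.61, 5.09 and 6.16 CPM under the IL-6 KO label, 9.39, 24.3 and 19.0 in BALB/c and 19.7, 16.7 and 30.1 in C57BL/6. The libraries with the IL-6 KO label were below all others, at -1.89 ± 0.37, adjusted p = 0.00444 against C57BL/6 and -1.56 ± 0.37, adjusted p = 0.0104 against BALB/c. Only 4.61% of its reads mapped to a single place, it overlaps and nearly matches Gm10501, and its counts were 25, 25 and 29 reads under the IL-6 KO label, so its level is uncertain. The stress-induced pair Hspa1a and Hspa1b, named here after their values were seen, are 99.2% identical and were read as 1 sum. Together they had 270.0, 276 and 222 CPM under the IL-6 KO label, 176, 176 and 196 in BALB/c and 217, 349 and 190.0 in C57BL/6. C57BL/6 replicate 2 was the highest, and the groups overlapped except that BALB/c lay below the IL-6 KO label. No comparison of the sum passed (0.02 ± 0.22, adjusted p = 0.945 against C57BL/6, 0.49 ± 0.22, adjusted p = 0.11 against BALB/c, -0.46 ± 0.22, adjusted p = 0.286 between BALB/c and C57BL/6).

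The HSP90 class has 3 genes, of which 2 were higher under the IL-6 KO label than in C57BL/6 and 1 than in BALB/c. Over all genes 19.2% and 19.9% were higher. Hsp90aa1, the inducible cytosolic HSP90 (chromosome 12, 110690605 to 110702728), had 297, 194 and 246 CPM under the IL-6 KO label, 139, 108 and 121 in BALB/c and 113, 141 and 95.3 in C57BL/6. All 3 libraries of the label were above all others. The difference was 1.07 ± 0.20, adjusted p = 0.00365 against C57BL/6 and 1.00 ± 0.20, adjusted p = 0.00491 against BALB/c. Only 46.2% of its reads mapped to a single place, and in those alone the differences were 1.09 ± 0.21, adjusted p = 0.00366 and 1.00 ± 0.21, adjusted p = 0.00544. Its annotated copies held at most 7 reads in any library. The list of immediate early genes, which answer to stress and tissue handling, was also higher under the label, with 6 of 10 genes called in each comparison and sums of 1029, 1072 and 739.8 CPM under the IL-6 KO label, 495, 570.2 and 601 in BALB/c and 521, 559 and 540.2 in C57BL/6. Within the label, the list was highest in replicate 2, where Hsp90aa1 was lowest. The part of the list in the Hsp90aa1 values was not tested.

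Hsp90b1, or Grp94, is the HSP90 of the endoplasmic reticulum. It had 394, 355 and 347 CPM under the IL-6 KO label, 292, 298 and 294 in BALB/c and 275, 259.6 and 244 in C57BL/6. The IL-6 KO label stood above both strains without overlap. The difference passed against C57BL/6 (0.49 ± 0.13, adjusted p = 0.0148) but not against BALB/c (0.31 ± 0.13, adjusted p = 0.0805), where DESeq2 called it (adjusted p = 0.012). The first call was lost without IL-6 KO replicate 1 or C57BL/6 replicate 3 (1.67e-05 to 0.0538). The constitutive Hsp90ab1, with 1437, 1173 and 1304 CPM under the IL-6 KO label, 928, 1108 and 1130.1 in BALB/c and 1138, 1430.5 and 1259 in C57BL/6, overlapped between the label and C57BL/6 (0.03 ± 0.18, adjusted p = 0.905) and lay above BALB/c in each library of the label, at 0.31 ± 0.18, adjusted p = 0.203.

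The mitochondrial chaperonin pair, Hspd1 (Hsp60) and its lid Hspe1 (Hsp10), are divergent neighbours on chromosome 1 that share a promoter. Hspd1 had 257, 154 and 216 CPM under the IL-6 KO label, 267, 143 and 157 in BALB/c and 152, 159.7 and 165 in C57BL/6. IL-6 KO replicates 1 and 3 and BALB/c replicate 1 were the high libraries, and the groups overlapped. Hspe1 had 85.4, 62.7 and 69.4 CPM under the IL-6 KO label, 66.7, 48.2 and 55.6 in BALB/c and 53.5, 59.2 and 51.4 in C57BL/6. Its libraries with the IL-6 KO label were above C57BL/6 by 0.40 ± 0.16, adjusted p = 0.0765, and against BALB/c the groups overlapped (0.35 ± 0.16, adjusted p = 0.113). Without IL-6 KO replicate 2 both Hspe1 differences passed (adjusted p = 0.033 and 0.0492), and on library size alone the first did (0.0341). Otherwise neither gene passed (Hspd1 0.39 ± 0.26, adjusted p = 0.258 against C57BL/6 and 0.14 ± 0.26, adjusted p = 0.687 against BALB/c). Mitochondrial Hspa9, named after its values were seen, was also highest in BALB/c replicate 1: it had 256, 217 and 267 CPM under the IL-6 KO label, 407, 278 and 264 in BALB/c and 250.1, 263 and 314 in C57BL/6. The summed adipocyte list stood at 11757 CPM in that library and at 3525 and 3481 CPM in BALB/c replicates 2 and 3. Under the IL-6 KO label it stood at 1791, 3554 and 1254 CPM, highest in replicate 2, where Hspd1 and Hspa9 were lowest. In C57BL/6 it stood at 3535, 3821 and 5189.8 CPM, highest in replicate 3, as Hspd1 and Hspa9 were. The part of the list in these values was not tested.

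Small heat shock genes had the lowest median of the classes in both comparisons of the IL-6 KO label. Of 7 tested, 4 were lower and none higher in the libraries with the IL-6 KO label than in C57BL/6 (median -1.52), and 3 were lower and none higher than in BALB/c (median -0.97). Over all genes 16.0% and 17.4% were lower. The genes called lower were Hspb2, Hspb3, Hspb6 and, against C57BL/6 alone, Hspb7. Hspb8 was not called, at -0.27 ± 0.17, adjusted p = 0.233 against C57BL/6. It lay above BALB/c in each library of the label (0.33 ± 0.17, adjusted p = 0.149). Hspb6, or Hsp20, is abundant in smooth, heart and skeletal muscle and lies on chromosome 7, 30552178 to 30555443. It had 119.5, 136 and 123 CPM under the IL-6 KO label, 206, 541 and 459 in BALB/c and 398, 270.2 and 778 in C57BL/6. All libraries with the IL-6 KO label were below all others, and replicates spread widely within both strains. The difference was -1.94 ± 0.43, adjusted p = 0.00771 against C57BL/6 and -1.67 ± 0.43, adjusted p = 0.0138 against BALB/c, the second lost without IL-6 KO replicate 3 (0.000317 to 0.0531).

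Hspb2 and Hspb3 encode proteins that form a complex of their own in muscle. Hspb2 had 5.02, 10.8 and 6.37 CPM under the IL-6 KO label, 12.3, 28.4 and 25.1 in BALB/c and 26.6, 23.3 and 39.0 in C57BL/6. Each library of the label was below both strains, at -1.98 ± 0.38, adjusted p = 0.00423 against C57BL/6 and -1.55 ± 0.38, adjusted p = 0.0124 against BALB/c, the second lost without IL-6 KO replicate 3 (0.000636 to 0.0536). Hspb2 overlaps its neighbour Cryab, and 68.2% of its reads mapped to a single place. Hspb3 had 1.59, 3.05 and 1.91 CPM under the IL-6 KO label, 4.62, 11.5 and 8.11 in BALB/c and 9.07, 7.61 and 15.2 in C57BL/6, from 6, 15 and 9 reads under the IL-6 KO label. It too was lowest in all libraries of the label, at -2.25 ± 0.44, adjusted p = 0.00466 against C57BL/6 and -1.85 ± 0.45, adjusted p = 0.0112 against BALB/c.

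Hspb7, a small heat shock protein of heart and skeletal muscle, had 66.4, 111 and 76.6 CPM under the IL-6 KO label, 79.3, 221 and 197 in BALB/c and 111, 241 and 378 in C57BL/6. All libraries with the IL-6 KO label were below C57BL/6, replicate 2 only just, while BALB/c replicate 1 fell among them. The difference was -1.52 ± 0.48, adjusted p = 0.0332 against C57BL/6, lost without IL-6 KO replicate 1 or 3 or C57BL/6 replicate 2 or 3 (0.00449 to 0.129), and -0.97 ± 0.47, adjusted p = 0.132 against BALB/c, where it passed without BALB/c replicate 1 (adjusted p = 0.0454). Hspb1, in contrast, had 524, 515 and 395 CPM under the IL-6 KO label, 418, 511 and 541 in BALB/c and 556, 618 and 496 in C57BL/6. Its groups overlapped in every comparison and no difference passed (-0.22 ± 0.18, adjusted p = 0.362 against C57BL/6, -0.04 ± 0.18, adjusted p = 0.893 against BALB/c). Only 48.7% of its reads mapped to a single place.

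The summed skeletal muscle list was lower in each library of the label than in all wild-type libraries, as Hspb2, Hspb3 and Hspb6 were. Hspb7 was so only against C57BL/6, and there only just: IL-6 KO replicate 2 had 110.8 CPM and C57BL/6 replicate 1 had 111.5. Hspb1, Hspb8 and Hspb11 were called in no comparison. Of the 18 genes of the list, 17 were lower under the IL-6 KO label than in C57BL/6 (median -2.66) and 17 than in BALB/c (median -2.04). Over all genes, the shares lower were 16.0% and 17.4%. Between BALB/c and C57BL/6, 1 was lower. Its sum was 13921, 14472 and 12596 CPM under the IL-6 KO label, 35743, 74247 and 70588 in BALB/c and 89087, 70771 and 126476 in C57BL/6. As with Hspb6, BALB/c replicate 1 was the lowest wild-type library and C57BL/6 replicate 3 the highest. Even the lowest library, IL-6 KO replicate 3, thus held muscle RNA. Their part in the small heat shock values was not tested.

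**Figure D4:**
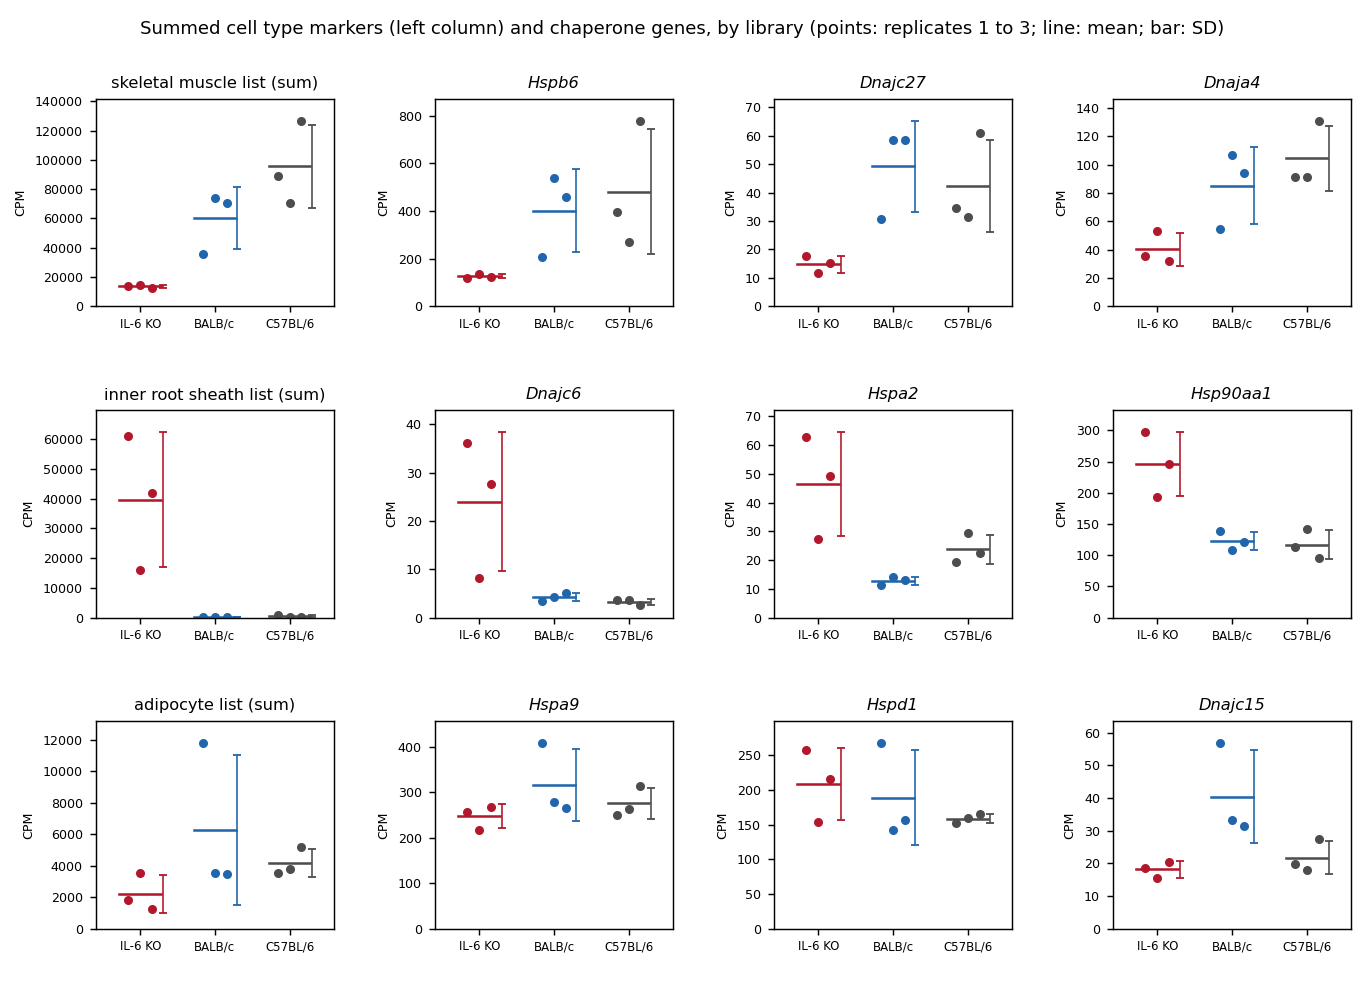
Summed marker lists (left column: skeletal muscle, inner root sheath, adipocyte) beside 3 chaperone genes each, in CPM by group; points are replicates 1 to 3 from left to right, lines means and bars SD. BALB/c replicate 1 is low for muscle, Hspb6, Dnajc27 and Dnaja4 and high for adipocytes, Hspa9, Hspd1 and Dnajc15. IL-6 KO replicate 2 is the low library of its group for inner root sheath, Dnajc6, Hspa2 and Hsp90aa1. The same library is the high one of its group for adipocytes but the low one for Hspa9, Hspd1 and Dnajc15. C57BL/6 replicate 3 is the high library of its group for adipocytes and for these 3 genes.

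DnaJ genes of type A are built most like bacterial DnaJ. Of 4 tested, 1 was higher and 2 lower under the IL-6 KO label in both comparisons, beside 19.2% and 16.0% of all genes against C57BL/6 and 19.9% and 17.4% against BALB/c. Dnaja1, a cytosolic partner of Hsc70, had 204, 159 and 171 CPM under the IL-6 KO label, 128, 100.1 and 100.1 in BALB/c and 118, 136 and 88.6 in C57BL/6. All libraries of the label were above all others, by 0.70 ± 0.19, adjusted p = 0.0166 against BALB/c and 0.64 ± 0.19, adjusted p = 0.0259 against C57BL/6. The first call was lost without IL-6 KO replicate 1 or BALB/c replicate 2 or 3 (0.00414 to 0.0712), and the second without IL-6 KO replicate 1 or 3 or C57BL/6 replicate 1 or 3 (0.00967 to 0.0921). Dnaja1 overlaps Smu1, and only 52.6% of its reads mapped to a single place. In those alone both calls were kept (adjusted p = 0.0263 in each).

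Dnaja3, or Tid1, works inside mitochondria with Hspa9. It had 48.1, 38.9 and 44.8 CPM under the IL-6 KO label, 86.3, 63.7 and 62.6 in BALB/c and 69.2, 66.2 and 79.8 in C57BL/6. The libraries with the IL-6 KO label were all the lowest, at -0.71 ± 0.16, adjusted p = 0.0085 against C57BL/6 and -0.69 ± 0.16, adjusted p = 0.00924 against BALB/c. Dnaja4, another cytosolic type A protein, had 35.2, 53.1 and 32.1 CPM under the IL-6 KO label, 54.8, 106 and 94.1 in BALB/c and 91.3, 91.0 and 131 in C57BL/6. It was also lowest in the label, narrowly so between IL-6 KO replicate 2 and BALB/c replicate 1. The difference was -1.37 ± 0.29, adjusted p = 0.00577 against C57BL/6 and -1.08 ± 0.28, adjusted p = 0.0159 against BALB/c, the second lost without IL-6 KO replicate 1 or 3 or BALB/c replicate 2 (0.00179 to 0.0683). Dnaja4 overlaps Wdr61, and only 50.6% of its reads mapped to a single place. In those alone both calls were kept (adjusted p = 0.00917 against C57BL/6 and 0.0255 against BALB/c). Dnaja2, the other cytosolic partner of Hsc70, had 169, 147 and 162 CPM under the IL-6 KO label, 157, 178 and 159 in BALB/c and 156, 177 and 156 in C57BL/6, with overlapping groups and no call (-0.03 ± 0.12, adjusted p = 0.869 and -0.05 ± 0.12, adjusted p = 0.79 against C57BL/6 and BALB/c).

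Type B genes include Dnajb1 (Hsp40), the classic heat-induced J protein. Of 11 tested, 1 was higher and 2 lower than in C57BL/6, and 3 higher and 2 lower than in BALB/c. The shares were 9.09% and 18.2% and then 27.3% and 18.2%, beside 19.2% and 16.0%, and then 19.9% and 17.4%, of all genes. Dnajb1 had 65.1, 85.9 and 66.4 CPM under the IL-6 KO label, 70.4, 61.2 and 64.9 in BALB/c and 48.6, 84.9 and 50.1 in C57BL/6. IL-6 KO replicate 2 and C57BL/6 replicate 2 were its 2 highest libraries, and no difference passed (0.24 ± 0.22, adjusted p = 0.412 and 0.15 ± 0.22, adjusted p = 0.622 against C57BL/6 and BALB/c). Without C57BL/6 replicate 2 the first did (adjusted p = 0.0314). Dnajb13, known from the radial spokes of cilia and sperm tails, had 11.4, 7.74 and 14.0 CPM under the IL-6 KO label, 2.23, 0.998 and 1.78 in BALB/c and 1.54, 1.49 and 1.49 in C57BL/6. Those levels rest on 43, 38 and 66 reads under the IL-6 KO label, 14, 6 and 11 in BALB/c and 10, 10 and 8 in C57BL/6. The label was higher in each library, by 2.85 ± 0.35, adjusted p = 0.000639 against C57BL/6 and 2.70 ± 0.35, adjusted p = 0.000682 against BALB/c, and no alternative ended these calls.

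Dnajb5, a cytosolic J protein of chromosome 4, 42949814 to 42959425, had 24.9, 33.0 and 25.5 CPM under the IL-6 KO label, 46.2, 65.2 and 62.6 in BALB/c and 96.7, 80.1 and 127 in C57BL/6. The 3 groups did not overlap, with the IL-6 KO label lowest and C57BL/6 highest. The difference was -1.86 ± 0.21, adjusted p = 0.000522 against C57BL/6 and -1.06 ± 0.21, adjusted p = 0.00485 against BALB/c, and -0.80 ± 0.20, adjusted p = 0.0687 for BALB/c against C57BL/6, which missed the threshold but passed with DESeq2 (adjusted p = 0.0142) and on leaving out IL-6 KO replicate 2 (0.042). Dnajb4, a close relative, had 31.7, 46.2 and 33.1 CPM under the IL-6 KO label, 52.7, 63.7 and 63.7 in BALB/c and 47.0, 64.1 and 56.1 in C57BL/6. IL-6 KO replicate 2 came within 1 CPM of C57BL/6 replicate 1, and otherwise the label was well below both strains. The difference was -0.69 ± 0.18, adjusted p = 0.0151 against BALB/c, lost without IL-6 KO replicate 1 or 3 (0.00257 to 0.0658). Against C57BL/6 it was -0.59 ± 0.18, adjusted p = 0.0311, lost without IL-6 KO replicate 1 or 3 or C57BL/6 replicate 2 or 3, on library size alone and in a fit of the 2 groups alone (0.00479 to 0.127).

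Dnajb2, a J protein with ubiquitin-binding motifs best known from neurons, had 144, 89.2 and 113 CPM under the IL-6 KO label, 78.0, 75.3 and 67.5 in BALB/c and 73.0, 85.2 and 89.5 in C57BL/6. The libraries of the label were above BALB/c and overlapped C57BL/6 at replicate 2. It was called against BALB/c (0.65 ± 0.18, adjusted p = 0.0181), a call lost without IL-6 KO replicate 1 or 3 or BALB/c replicate 2 or 3 (0.00248 to 0.0682), and was at 0.48 ± 0.18, adjusted p = 0.0575 against C57BL/6, where it passed on library size alone (adjusted p = 0.0161), with DESeq2 (0.0429) and on leaving out IL-6 KO replicate 2 (0.00764). Dnajb11, or ERdj3, hands unfolded proteins to BiP in the endoplasmic reticulum. It had 75.1, 73.7 and 62.8 CPM under the IL-6 KO label, 52.4, 58.4 and 53.7 in BALB/c and 58.6, 59.7 and 61.3 in C57BL/6. The label was higher in every library, by 0.36 ± 0.11, adjusted p = 0.0313 against BALB/c and 0.24 ± 0.11, adjusted p = 0.13 against C57BL/6, where it passed on library size alone (adjusted p = 0.0363). The call against BALB/c was lost without IL-6 KO replicate 1, each BALB/c replicate in turn or C57BL/6 replicate 1, without the low-count filter and with the replicate block (adjusted p = 0.0654), over a range of 0.0205 to 0.108.

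Type C genes share only the J domain and serve the most varied roles. Of 25 tested, 3 were higher and 5 lower under the IL-6 KO label than in C57BL/6, and 2 higher and 5 lower than in BALB/c. The shares of 12% and 20% against C57BL/6 stood beside 19.2% and 16.0% of all genes, and those of 8% and 20% against BALB/c beside 19.9% and 17.4%. Dnajc6 encodes auxilin, which recruits Hsc70 to strip clathrin from vesicles and is best known from neurons. It had 36.2, 8.14 and 27.6 CPM under the IL-6 KO label, 3.34, 4.16 and 5.03 in BALB/c and 3.54, 3.58 and 2.6 in C57BL/6. Each library of the label was above all wild-type libraries, with replicate 2 far below replicates 1 and 3. The difference was 2.86 ± 0.49, adjusted p = 0.00237 against C57BL/6 and 2.51 ± 0.48, adjusted p = 0.00385 against BALB/c, and no alternative ended the calls. Replicate 2 was also the lowest of the label for the hair shaft list (18108, 3490 and 13666 CPM) and the melanocyte list (821, 103 and 923 CPM in replicates 1, 2 and 3). Their part in the Dnajc6 values was not tested.

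Dnajc27, a small GTPase of the Rab kind fused to a J domain, had 17.7, 11.6 and 15.1 CPM under the IL-6 KO label, 30.9, 58.4 and 58.6 in BALB/c and 34.4, 31.5 and 60.9 in C57BL/6. The libraries of the label were all the lowest, at -1.52 ± 0.33, adjusted p = 0.00746 against C57BL/6 and -1.74 ± 0.33, adjusted p = 0.00394 against BALB/c. Dnajc28 had 7.14, 7.94 and 4.88 CPM under the IL-6 KO label, 19.1, 15 and 13.1 in BALB/c and 11.4, 14.8 and 18.0 in C57BL/6. The IL-6 KO label lay clear below both strains, which overlapped, with differences of -1.14 ± 0.26, adjusted p = 0.00938 and -1.24 ± 0.26, adjusted p = 0.00623 against C57BL/6 and BALB/c. It overlaps Gm15964 and 3.54% of its reads mapped to a single place, so its own level is uncertain. Dnajc4 had 8.99, 14.0 and 13.6 CPM under the IL-6 KO label, 19.3, 20.1 and 19.5 in BALB/c and 16.8, 17.4 and 22.5 in C57BL/6. It was lower in each library of the label, at -0.62 ± 0.20, adjusted p = 0.0389 against C57BL/6 and -0.67 ± 0.20, adjusted p = 0.0268 against BALB/c. The first call was lost without IL-6 KO replicate 1 or 3, BALB/c replicate 2 or 3 or any C57BL/6 replicate, and the second without IL-6 KO replicate 1 or 3 or BALB/c replicate 2 or 3. Both were lost on library size alone and in a fit of the 2 groups alone (0.0236 to 0.118 and 0.0125 to 0.0779).

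Dnajc15 and Dnajc19 sit in the inner mitochondrial membrane, where Dnajc19 is tied to the protein import motor. Dnajc15 had 18.5, 15.5 and 20.4 CPM under the IL-6 KO label, 56.7, 33.3 and 31.3 in BALB/c and 19.8, 17.9 and 27.5 in C57BL/6. BALB/c stood above both other groups without overlap, with replicate 1 the highest. The IL-6 KO label was lower than BALB/c at -1.16 ± 0.26, adjusted p = 0.00861 and did not pass against C57BL/6 (-0.26 ± 0.27, adjusted p = 0.477). BALB/c against C57BL/6 gave 0.90 ± 0.26, adjusted p = 0.102, and passed with DESeq2 (adjusted p = 0.0313). Dnajc19 had 21.7, 21.2 and 18.7 CPM under the IL-6 KO label, 30.2, 33.3 and 34.7 in BALB/c and 26.4, 24.5 and 28.0 in C57BL/6. Here the label was the lowest and BALB/c the highest, without overlap, at -0.67 ± 0.13, adjusted p = 0.0043 against BALB/c and -0.36 ± 0.13, adjusted p = 0.0602 against C57BL/6, where it passed in unique reads (adjusted p = 0.0401).

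Dnajc10, or ERdj5, is a reductase that breaks disulfide bonds of proteins bound for disposal from the endoplasmic reticulum. It had 62.4, 65.4 and 73.7 CPM under the IL-6 KO label, 70.5, 78.7 and 82.4 in BALB/c and 58.6, 46.7 and 47.7 in C57BL/6. C57BL/6 was the lowest group without overlap, and the label overlapped BALB/c (-0.20 ± 0.13, adjusted p = 0.259). The difference was 0.60 ± 0.13, adjusted p = 0.0444 for BALB/c against C57BL/6 and 0.40 ± 0.13, adjusted p = 0.0435 for the label against C57BL/6. The first call, the one gene higher in BALB/c than in C57BL/6, was lost without IL-6 KO replicate 1 or 3, any BALB/c replicate or C57BL/6 replicate 2 or 3, without the low-count filter and with the replicate block (adjusted p = 0.108), over a range of 0.00333 to 0.162. The second was lost without the same libraries, without the filter, in unique reads, with the block (adjusted p = 0.0855) and in a fit of the 2 groups alone (0.0187 to 0.156). Dnajc7, which links HSP70 to HSP90, had 193, 111 and 185 CPM under the IL-6 KO label, 122, 115 and 106 in BALB/c and 109, 110.2 and 127 in C57BL/6. IL-6 KO replicates 1 and 3 were high and replicate 2 lay among the wild types, and no difference passed (0.50 ± 0.20, adjusted p = 0.0778 and 0.51 ± 0.20, adjusted p = 0.0685 against C57BL/6 and BALB/c). Both passed without replicate 2 (adjusted p = 0.00202 and 0.00177) and on library size alone (0.0237 and 0.0348).

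**Figure D5:**
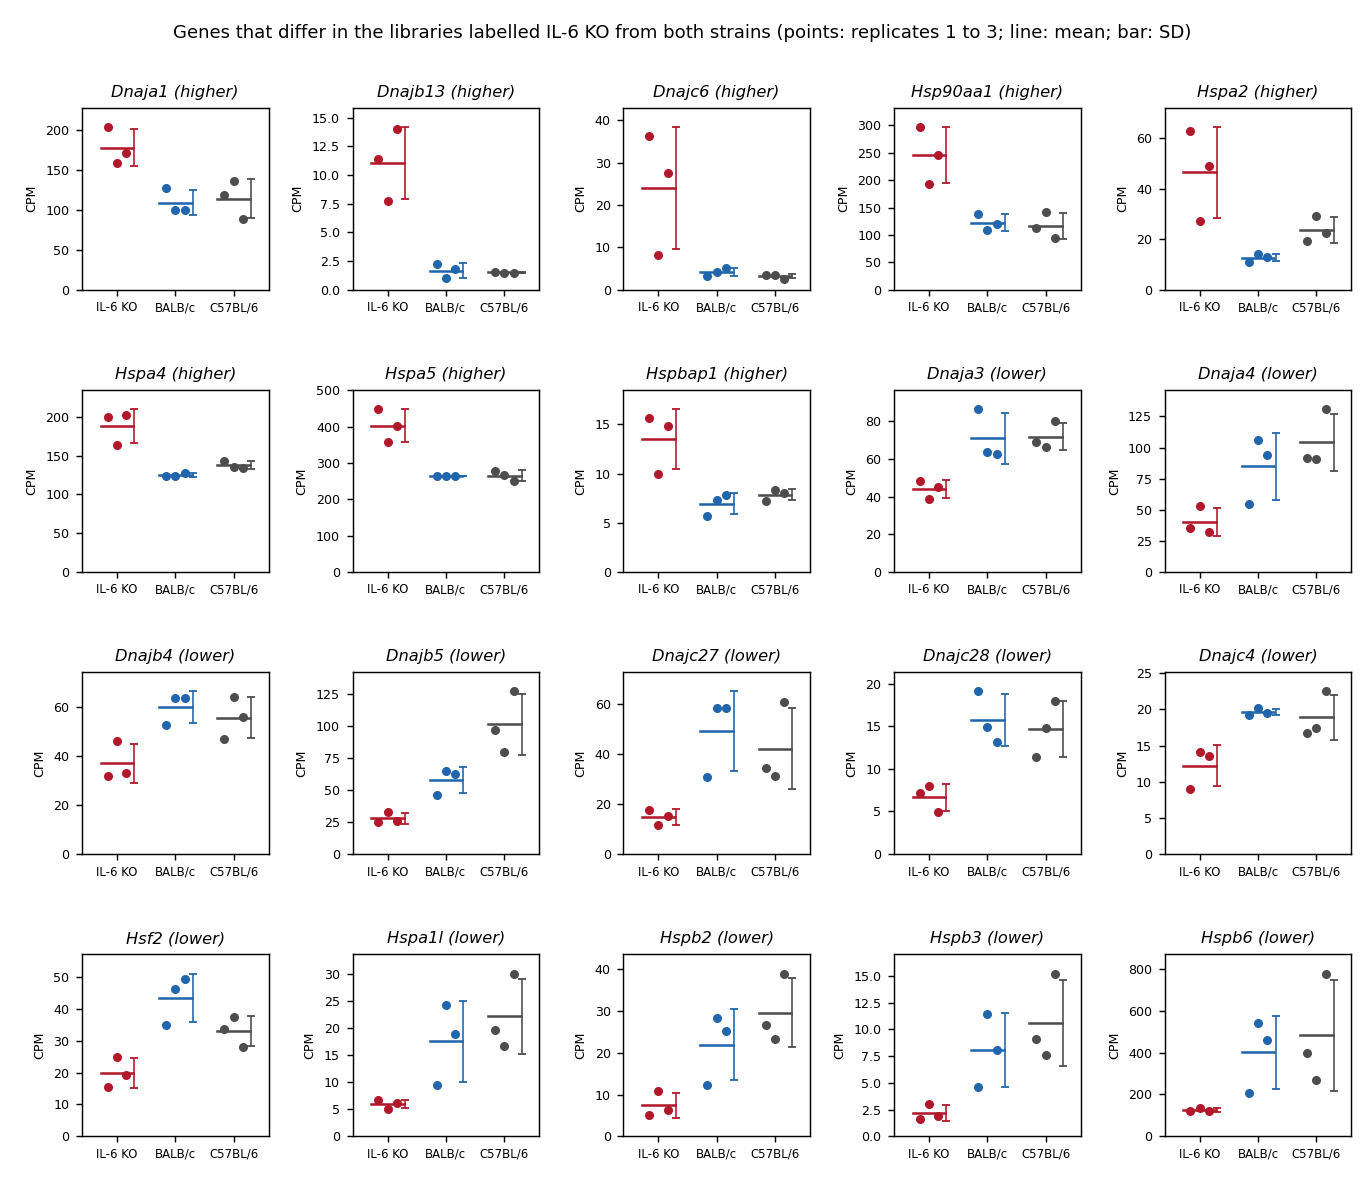
CPM by group for the 8 genes called higher and the 12 called lower under the IL-6 KO label against both strains; points are replicates 1 to 3 from left to right, lines means and bars SD. The label overlaps neither strain in each panel except Hspa2, where its replicate 2 (27.3 CPM) is within the range of C57BL/6 (19.2 to 29.4 CPM). The gap is narrow for Dnajb4 (46.2 CPM in IL-6 KO replicate 2, 47.0 in C57BL/6 replicate 1). It is also narrow for Dnaja4 (53.1 CPM in IL-6 KO replicate 2, 54.8 in BALB/c replicate 1).

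Of the regulators, Hsf1 is the master switch of the heat shock response, Hsf2 is a relative known from development, and Bag3 ties HSP70 to small heat shock proteins in the disposal of damaged muscle proteins. None was higher, 2 were lower than in C57BL/6 and 1 than in BALB/c, where 16.0% and 17.4% of all genes were lower. Hsf2 had 15.6, 24.8 and 19.3 CPM under the IL-6 KO label, 35.0, 46.4 and 49.3 in BALB/c and 33.7, 37.6 and 28.0 in C57BL/6. The libraries of the label were all below both strains, at -1.12 ± 0.21, adjusted p = 0.00331 against BALB/c and -0.73 ± 0.21, adjusted p = 0.0236 against C57BL/6. The second call was lost without IL-6 KO replicate 1 or 3 or C57BL/6 replicate 1 or 2 and on library size alone (0.00686 to 0.0864).

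Bag3 had 58.7, 56.2 and 65.2 CPM under the IL-6 KO label, 60.3, 79.7 and 75.1 in BALB/c and 88.5, 99.5 and 106 in C57BL/6. C57BL/6 was the highest group without overlap, and the label overlapped BALB/c. The difference was -0.71 ± 0.14, adjusted p = 0.00458 against C57BL/6, -0.26 ± 0.14, adjusted p = 0.176 against BALB/c and -0.45 ± 0.14, adjusted p = 0.121 for BALB/c against C57BL/6. Hsf1 had 33.6, 21.4 and 31.2 CPM under the IL-6 KO label, 28.7, 27.9 and 24.8 in BALB/c and 35.5, 39.2 and 42.9 in C57BL/6. C57BL/6 was again the highest without overlap, but no comparison passed: -0.45 ± 0.18, adjusted p = 0.0736 and 0.08 ± 0.18, adjusted p = 0.756 for the label against C57BL/6 and BALB/c, and -0.53 ± 0.17, adjusted p = 0.142 for BALB/c against C57BL/6. The last passed without IL-6 KO replicate 2 (adjusted p = 0.033). Hspbap1, the partner of Hspb1, had 15.6, 9.98 and 14.9 CPM under the IL-6 KO label, 5.73, 7.32 and 7.79 in BALB/c and 7.23, 8.35 and 7.98 in C57BL/6. It was higher in every library of the label, by 0.95 ± 0.23, adjusted p = 0.0114 against BALB/c and 0.77 ± 0.23, adjusted p = 0.0271 against C57BL/6. The second call was lost without IL-6 KO replicate 1 or 3 or any C57BL/6 replicate, and with the replicate block (adjusted p = 0.0569), over a range of 0.00494 to 0.0993.

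HSF proteins bind GAA units that alternate with their reverse complement TTC, 2 bases apart. Promoters from 250 bases before to 50 after the start were read from RefSeq (GRCm38.p6) for 61 of the 76 genes and searched for GAANNTTC or TTCNNGAA, each of which reads the same on both strands, and for 3 such units in a row, which hold 2 overlapping pairs. A pair occurred in 17 of the 61 (27.9%), against 17.0% of 27025 genes in the table. A row of 3 occurred in 4 of the 61, Dnajb6, Hspd1, Hspe1 and Hsph1 (6.56%, against 0.662% of all genes). The genes without a promoter entry, among them Hspa8, Hsp90aa1, Hsp90ab1 and Hsf1, were not searched. The lines below show 2 of the stretches with 3 or more units, with the units in capitals. They are shown because they hold the longest rows upstream of a start among the 61 genes searched. That of Hspe1 (chr1:55088039-55088096, plus strand) has 4 units, from -89 to -72 relative to its start, and lies on the other strand of the same bases from -144 to -127 relative to the start of Hspd1. That of Dnajb6 (chr5:29735832-29735884, plus strand) runs from -46 to -34.

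Hspe1: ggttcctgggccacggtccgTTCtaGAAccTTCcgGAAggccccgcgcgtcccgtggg

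Dnajb6: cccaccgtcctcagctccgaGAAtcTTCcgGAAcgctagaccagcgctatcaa

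None of these 4 genes passed in any comparison, and their median log2 fold change was 0.19 for the IL-6 KO label against C57BL/6, 0.25 against BALB/c and -0.04 for BALB/c against C57BL/6. Dnajb6, which keeps aggregation-prone proteins soluble and is named here for its sequence, had 119, 104 and 121 CPM under the IL-6 KO label, 99.3, 112 and 111 in BALB/c and 105, 132 and 117 in C57BL/6, with overlapping groups. Only 35.3% of its reads mapped to a single place. Hsph1, or Hsp110, an exchange factor named on the same ground, had 68.5, 55.8 and 69.6 CPM under the IL-6 KO label, 46.0, 51.4 and 54.8 in BALB/c and 61.3, 77.0 and 56.4 in C57BL/6. Its libraries with the IL-6 KO label lay above BALB/c and overlapped C57BL/6. Of the 17 genes with a pair, 16 were tested, of which 2 were higher and 6 lower under the label than in C57BL/6 and 1 was higher and 5 lower than in BALB/c. Between BALB/c and C57BL/6, 1 was higher. Over all genes, 19.2% were higher and 16.0% lower in the first comparison, 19.9% and 17.4% in the second, and 1.63% higher between the strains. The gap to these shares was not tested. A match is a stretch of letters, and binding was not measured.

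Other genes of protein folding were read from 3 lists. Of 18 genes of endoplasmic reticulum folding and the unfolded protein response, 8 were higher and 3 lower in the IL-6 KO label than in C57BL/6 (median 0.36), and 7 higher and 3 lower than in BALB/c (median 0.30). These are 44.4% and 16.7% of the list in the first comparison, beside 19.2% and 16.0% of all genes, and 38.9% and 16.7% in the second, beside 19.9% and 17.4%. Edem1, which marks misfolded glycoproteins for disposal, had 112, 92.2 and 111 CPM under the IL-6 KO label, 75.8, 55.7 and 48.2 in BALB/c and 54.4, 51.3 and 46.2 in C57BL/6. It was higher in each library of the label (1.05 ± 0.18, adjusted p = 0.00209 against C57BL/6, 0.81 ± 0.17, adjusted p = 0.00666 against BALB/c). Pdia3, a disulfide isomerase, had 427, 394 and 360.2 CPM under the IL-6 KO label, 275, 264 and 272 in BALB/c and 273, 257 and 232 in C57BL/6. It too stood above both strains (0.63 ± 0.13, adjusted p = 0.00624 and 0.54 ± 0.13, adjusted p = 0.0121 against C57BL/6 and BALB/c). Herpud1, a stress-induced part of the same disposal route, had 51.3, 81.0 and 49.7 CPM under the IL-6 KO label, 99.5, 127 and 118 in BALB/c and 142, 147 and 124 in C57BL/6. It was lower in each library of the label (-1.18 ± 0.20, adjusted p = 0.00216 and -0.92 ± 0.20, adjusted p = 0.0068 against C57BL/6 and BALB/c).

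Of 14 subunits of the cytosolic chaperonin CCT and of prefoldin, which fold actin and tubulin, 5 were higher and 1 lower than in C57BL/6 (median 0.21), and 7 higher and 1 lower than in BALB/c (median 0.32). The shares were 35.7% and 7.14% against C57BL/6 and 50% and 7.14% against BALB/c, beside the same shares of all genes as for the previous list. Cct3 had 220.0, 139.7 and 194 CPM under the IL-6 KO label, 98.7, 93.3 and 96.2 in BALB/c and 106, 110.2 and 107 in C57BL/6. Each library of the label was above the wild types, with replicate 2 the lowest of the 3 (0.77 ± 0.16, adjusted p = 0.00587 and 0.94 ± 0.16, adjusted p = 0.00238 against C57BL/6 and BALB/c). Cct2 had 291, 201 and 256 CPM under the IL-6 KO label, 141, 138 and 136 in BALB/c and 152, 161 and 159 in C57BL/6. It showed the same order (0.66 ± 0.15, adjusted p = 0.0079 and 0.85 ± 0.15, adjusted p = 0.00251), and Cct6a was called in both too (0.70 ± 0.18, adjusted p = 0.0145 and 0.64 ± 0.18, adjusted p = 0.0198). The summed proliferation list moved in these samples, at 910.0, 404 and 889 CPM under the IL-6 KO label, 228, 223 and 261 in BALB/c and 191, 237 and 155 in C57BL/6. Its part in these values was not tested.

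Of 28 partners of HSP70 and HSP90 and other stress genes, 3 were higher and 7 lower than in C57BL/6 (median -0.07), and 4 higher and 6 lower than in BALB/c (median 0.09). That is 10.7% and 25% of the list and then 14.3% and 21.4%, beside 19.2% and 16.0%, and then 19.9% and 17.4%, of all genes. Unc45b, the chaperone of muscle myosin, had 33.1, 35.4 and 26.1 CPM under the IL-6 KO label, 90.7, 144 and 124 in BALB/c and 124, 137 and 198 in C57BL/6. It was far lower in the label, as the muscle list was (-2.28 ± 0.24, adjusted p = 0.000462 and -1.92 ± 0.24, adjusted p = 0.000577 against C57BL/6 and BALB/c). Hyou1, the exchange factor of BiP, had 103, 70.7 and 95.1 CPM under the IL-6 KO label, 49.8, 46.2 and 49.1 in BALB/c and 57, 61.1 and 50.9 in C57BL/6. It was higher in each library of the label, as Hspa5 was (0.67 ± 0.15, adjusted p = 0.00883 and 0.89 ± 0.15, adjusted p = 0.00238). Between BALB/c and C57BL/6, no gene of the 3 lists was called by edgeR's quasi-likelihood test. At an unadjusted p under 0.05 there were 5 partners and none of the other 2 lists, beside 2789 of all 14415 genes. DESeq2 called 1 partner lower.

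The remaining 7 called genes are named here after their values were seen. Against C57BL/6, Hspa13 (0.68 ± 0.20, adjusted p = 0.0284) and Dnajc2 (0.42 ± 0.14, adjusted p = 0.0372) were higher under the label, and Hspa12b (-1.20 ± 0.32, adjusted p = 0.0169), Dnajc25 (-0.60 ± 0.19, adjusted p = 0.0372) and Dnajc30 (-0.60 ± 0.21, adjusted p = 0.0475) were lower. Against BALB/c, Dnajc11 was higher (0.48 ± 0.15, adjusted p = 0.0341) and Hspa12a lower (-0.98 ± 0.35, adjusted p = 0.0493). Each of these calls was lost on leaving out 1 library: Hspa12b without IL-6 KO replicate 1 or 3 or C57BL/6 replicate 3 (0.00219 to 0.0663), Hspa13 without IL-6 KO replicate 2, BALB/c replicate 2 or 3 or C57BL/6 replicate 1 or 3 (0.0167 to 0.0997), and Dnajc11 without IL-6 KO replicate 1 or 3, BALB/c replicate 2 or 3 or C57BL/6 replicate 1 (0.0147 to 0.126). Dnajc2 (0.0182 to 0.131) and Dnajc25 were lost without IL-6 KO replicate 1 or 3 or any C57BL/6 replicate, and Dnajc2 also without BALB/c replicate 2 or 3. Only 25.6% of the reads of Dnajc25 mapped to a single place, and in those alone its adjusted p was 0.364, the highest of its range (0.0126 to 0.364). On library size alone it was 0.0992. Dnajc30 (0.0327 to 0.13) was lost without IL-6 KO replicate 1 or 2, BALB/c replicate 2 or 3 or C57BL/6 replicate 1 or 3, in unique reads (adjusted p = 0.0636) and on library size alone (0.0967), and Hspa12a (0.000491 to 0.149) without any library except IL-6 KO replicate 2, and on library size alone (0.0767). Without the low-count filter, Dnajc2 (0.0966) and Dnajc11 (0.0632) did not pass. In a fit of the 2 groups alone, Hspa13, Dnajc2, Dnajc25, Dnajc30 and Hspa12a did not pass either. Some gained a second call on leaving out a library: Dnajc2 (adjusted p = 0.0406) and Hspa12b (0.0113) against BALB/c and Hspa12a (0.000908) against C57BL/6, all on leaving out IL-6 KO replicate 2, and Dnajc30 against BALB/c on leaving out IL-6 KO replicate 3 (0.0466). Dnajc25 passed between BALB/c and C57BL/6 on leaving out IL-6 KO replicate 2 (0.0386) and with DESeq2 (0.0336). With the replicate block, Dnajc2, Dnajc25, Dnajc30 and Hspa12a did not pass (adjusted p = 0.0822, 0.0579, 0.0561 and 0.0545). Hspa12b is known from endothelium, and the endothelial list also differed. Of its 10 genes, 9 were lower under the label than in C57BL/6 and 4 than in BALB/c, beside 16.0% and 17.4% of all genes. The list had sums of 186, 232 and 183 CPM under the IL-6 KO label, 399, 268 and 186 in BALB/c and 469, 403 and 624 in C57BL/6. Its part in the Hspa12b values was not tested.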

How the data were processed

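Whole-skin RNA of 9 libraries, 3 a group, was sequenced and counted per gene by the authors on GRCm38, per the submitters' processing notes; aligner and strand setting: not given in the sources used here. Per the file headers, the deposited values are raw counts. Total exon reads were analysed, with unique exon reads as an alternative. The C57BL/6 replicate 1 file stacks 3 tables, of which the first was used.

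In R 4.3.3, edgeR 4.0.16 fitted all 9 libraries with a coefficient per group and no covariate (6 residual degrees of freedom, common dispersion 0.0524). The filter filterByExpr (minimum count 10, minimum total 15) left 14415 genes, scaled by TMM (factors 0.887 to 1.10). Groups came from the labels. The 3 pairwise quasi-likelihood F tests were adjusted by Benjamini-Hochberg over all genes, with a threshold of 0.05, and the SE is the fold change divided by the square root of F. The script was tested on simulated data. Library totals of 3843953 to 6882193 reads set the precision. A difference counts as lost where an alternative brings its adjusted p to 0.05 or above.

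Alternatives were DESeq2 1.42.0, RLE or library-size scaling, no low-count filter, unique reads, the groups compared alone, a replicate block, each library left out, and reads of near-identical copies added (chosen after seeing the data). Copies were found with blastn 2.17.0 in GENCODE vM21 (at least 95% identity over 200 bases and 40% of the shorter transcript). Chi-square tests between replicates found no library deposited in duplicate. The members, the 3 pathway lists and the 12 marker lists were chosen with earlier results of these data known.

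Genes are named with all values where they have the 2 highest levels per length in their class, are among up to 6 called in their class by smallest adjusted p, or were called in 1 direction against both other groups (the 10 with the smallest larger adjusted p where there are more). Of each pathway list the 3 with the smallest adjusted p are named. One gene that this rule names is not reported here. Other names are marked as chosen after their values were seen.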

Additional observations from a re-analysis of the deposited data

How the results depend on the processing

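No call changed direction under any alternative. As reported, the IL-6 KO label had 13 chaperone genes higher and 17 lower against C57BL/6, and 12 and 15 against BALB/c. Leaving out 1 library in turn gave 5 to 16 higher and 10 to 17 lower in the first comparison, and 8 to 17 and 10 to 16 in the second. In the first, the higher count fell to 6 without IL-6 KO replicate 1, 7 without replicate 3, 8 without C57BL/6 replicate 1 and 5 without C57BL/6 replicate 3, and the lower count to 10 without IL-6 KO replicate 1, 11 without replicate 3 and 11 without C57BL/6 replicate 3. A fit of the 2 groups alone gave 8 higher. Over all genes, leaving out 1 library gave 3238 to 6806 calls against 5068 for the label against C57BL/6, 3310 to 7044 against 5370 for the label against BALB/c, and 167 to 977 against 491 between BALB/c and C57BL/6, where DESeq2 gave 1033. Between the strains, chaperone genes higher numbered 0 without the low-count filter, 2 with DESeq2 and 0 to 1 on leaving out a library. Those lower numbered 4 with DESeq2, 0 with the reads of copies added (chosen after seeing the data) and 1 to 5 on leaving out a library, with 5 without IL-6 KO replicate 2.

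Same-numbered libraries had deviations from their group means correlated at -0.23 to 0.06. These values do not decide whether the replicate numbers pair the libraries, since wide spread within groups could hide a shared step. With the replicate block, the label against C57BL/6 called 4275 genes, with 9 chaperone genes higher and 15 lower. The label against BALB/c called 4551, with 11 and 14, and BALB/c against C57BL/6 called 255, with 0 chaperone genes higher.

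For the pathway lists against C57BL/6, endoplasmic reticulum genes higher (8 reported) numbered 4 without the filter, 5 with the block, 4 with the 2 groups alone and 3 to 8 on leaving out a library, and those lower (3) 2 to 3. Partners higher (3) numbered 6 on library size alone, 1 with the 2 groups alone, 6 with DESeq2 and 1 to 6, and those lower (7) 4 on library size alone and 3 to 8. CCT and prefoldin genes higher (5) numbered 3 with the block, 3 with the 2 groups alone and 2 to 6, and those lower (1) 0 on library size alone, 0 with the block and 0 to 1. Against BALB/c, endoplasmic reticulum genes higher (7) numbered 3 without the filter and 3 to 8, and those lower (3) 1 on library size alone and 1 to 3. Partners higher (4) numbered 2 without the filter, 2 with the block and 1 to 9, and those lower (6) 3 to 6. CCT and prefoldin genes higher (7) numbered 2 to 7, and those lower (1) 0 on library size alone, 0 with the block, 0 with the 2 groups alone and 0 to 1. Between the strains, partners lower (0) numbered 1 without the filter, 1 with the block, 1 with DESeq2 and 0 to 1. The cause of these shifts was not tested. Depth limits genes such as Hspb3 and Dnajb13, with as few as 6 reads in a library, and multi-mapped reads limit Hspa8, Hspa1l, Dnajc25 and Dnajc28, among others.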

Other observations

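Marker lists not yet described were read in the same fit. Among all genes, 19.2% were higher and 16.0% lower under the label than in C57BL/6, and 19.9% and 17.4% than in BALB/c. In edgeR's quasi-likelihood test, 6621 of 14415 genes reached an unadjusted p under 0.05 against C57BL/6 and 6897 against BALB/c. Between BALB/c and C57BL/6, 2789 did. Of 10 adipocyte genes, none was called in the IL-6 KO label against C57BL/6 (edgeR's quasi-likelihood test; 4 at an unadjusted p under 0.05) and 5 were lower than in BALB/c. The summed level was 1791, 3554 and 1254 CPM under the IL-6 KO label, 11757, 3525 and 3481 in BALB/c and 3535, 3821 and 5189.8 in C57BL/6, with BALB/c replicate 1 standing apart. Of 7 basal epidermis genes, 3 were lower than in C57BL/6 and 1 than in BALB/c. Of 10 suprabasal genes, 3 were higher than in C57BL/6, and 1 was higher and 1 lower than in BALB/c. Their sum was 4829, 21436 and 8116 CPM under the IL-6 KO label, 16651, 16262 and 18262 in BALB/c and 12617, 15061 and 9255 in C57BL/6. Of 9 leukocyte genes tested, 1 was lower in each of the 2 comparisons. No fibroblast gene of 10 was called in any comparison by edgeR's quasi-likelihood test, with 1, 0 and 4 at an unadjusted p under 0.05 (the label against C57BL/6, the label against BALB/c, BALB/c against C57BL/6). Of 15 hair shaft genes, all 15 were higher under the label in both comparisons, as were 9 of 10 inner root sheath genes and the 6 melanocyte genes tested. Of 12 proliferation genes, 11 were higher than in C57BL/6 and 12 than in BALB/c.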
